A study of Mus musculus with 2 samples.

Results

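The protocadherins form the largest branch of the cadherin superfamily, a group of calcium-dependent adhesion proteins. Members were the protein-coding mouse RefSeq genes with a symbol that starts with Pcdh, 69 of 21900 protein-coding genes. Of these, 57 lie in 3 tandem clusters on chromosome 18, with 14 alpha, 22 beta and 21 gamma genes, and 12 lie outside the clusters. Accessible regions were the ATAC-seq peaks of both libraries, merged where they overlapped by at least 1 bp, and a region belonged to a gene when it overlapped it or lay within 1 kb. By this rule 19 of 29076 regions were protocadherin regions, each counted once.

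ATAC-seq marks open chromatin through a transposase that inserts sequencing adapters into accessible DNA. Both libraries came from C57BL/6 mouse fetal liver at E14.5 (days of embryonic development). Each was made from 150000 sorted cells that lacked lineage markers and carried c-Kit, a receptor of blood stem and progenitor cells. The knockout library (Brd9KO, replicate 2) had the genotype CD45.2(+) Vav1-iCre Brd9fl/fl, and the control library (CTL, replicate 1) had the genotype CD45.2(+) Brd9fl/fl. Both therefore carried the floxed Brd9 alleles, and the knockout alone also carried the Cre recombinase, driven in blood cells by Vav1 regulatory DNA. BRD9 is a bromodomain protein found in 1 form of the BAF chromatin remodeller, the non-canonical one, and the comparison asks which sites are accessible without and with BRD9. The number of embryos behind each library was not stated. Which Brd9 exons are floxed was not stated either, so peak positions do not check the deletion. There was 1 library per genotype, so no test was possible, and every difference is one between these libraries.

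The clustered protocadherins are known for giving each neuron its own surface identity. In the alpha and gamma clusters many alternative first exons, each with its own promoter, are joined to a common set of last exons, whereas most beta genes consist of a single coding exon. CTCF and cohesin bring distant enhancers to the chosen promoters, and CTCF-bound sites are also known places of the non-canonical BAF complex. The genes outside the clusters encode mostly delta-protocadherins, with roles in cell sorting, axon growth and synapses. None is a classical gene of blood stem cells.

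Of the 12 genes outside the clusters, 7 had a region in at least 1 list, or 58.3% (95% exact Clopper-Pearson interval 27.7 to 84.8), against 62.0% of all protein-coding genes. A region was found for 5 genes in the knockout list and for 6 in the control list, where the shares over all protein-coding genes were 58.2% and 59.7%. A shared region, present in both lists, was found for 3 genes, Pcdh7, Pcdh17 and Pcdh10, against 55.2% of all protein-coding genes. Pcdh9 had a region in the knockout list alone, as 2.32% of all protein-coding genes did. Pcdh19 and Pcdh12 had one in the control list alone, as 3.76% of all did, and Pcdh1 had a different region in each list. Pcdh8, Pcdh15, Pcdh18, Pcdh20 and Pcdh11x had none in either.

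The promoter windows below are shown because the accessible region covers the annotated start of the gene, and that of Pcdh18 because it has a like base composition but no region. They come from RefSeq (GRCm38.p6, the coordinates of mm10), run 5′ to 3′ on the strand of the gene from 250 bases before its start to 50 bases from it, and have CG dinucleotides in capitals. RefSeq windows were found for 9 of the 69 members. No window was found for Pcdh1, Pcdh12, Pcdh11x and the clustered genes. Pcdh7 lies at chr5:57717831-57718130 (plus strand), Pcdh10 at chr3:45378148-45378447 (plus), Pcdh17 at chr14:84443313-84443612 (plus), Pcdh19 at chrX:133688944-133689243 (minus) and Pcdh18 at chr3:49757267-49757566 (minus).
Pcdh7: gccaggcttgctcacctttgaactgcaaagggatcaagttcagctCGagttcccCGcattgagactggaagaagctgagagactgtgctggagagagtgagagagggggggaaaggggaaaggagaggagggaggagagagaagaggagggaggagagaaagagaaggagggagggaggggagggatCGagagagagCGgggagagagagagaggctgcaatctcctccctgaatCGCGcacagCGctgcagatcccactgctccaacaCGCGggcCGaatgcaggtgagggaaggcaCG
Pcdh10: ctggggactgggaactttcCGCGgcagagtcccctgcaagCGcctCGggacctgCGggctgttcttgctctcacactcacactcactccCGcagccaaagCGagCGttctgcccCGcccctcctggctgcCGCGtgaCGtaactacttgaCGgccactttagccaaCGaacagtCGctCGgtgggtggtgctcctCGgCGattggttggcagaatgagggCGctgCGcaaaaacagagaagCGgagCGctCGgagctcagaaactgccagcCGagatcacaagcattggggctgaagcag
Pcdh17: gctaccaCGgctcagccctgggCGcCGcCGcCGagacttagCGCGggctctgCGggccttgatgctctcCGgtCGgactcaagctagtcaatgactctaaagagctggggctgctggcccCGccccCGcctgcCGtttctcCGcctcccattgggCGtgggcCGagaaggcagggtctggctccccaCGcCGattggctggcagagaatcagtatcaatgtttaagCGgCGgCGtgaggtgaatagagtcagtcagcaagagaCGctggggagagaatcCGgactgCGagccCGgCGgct
Pcdh19: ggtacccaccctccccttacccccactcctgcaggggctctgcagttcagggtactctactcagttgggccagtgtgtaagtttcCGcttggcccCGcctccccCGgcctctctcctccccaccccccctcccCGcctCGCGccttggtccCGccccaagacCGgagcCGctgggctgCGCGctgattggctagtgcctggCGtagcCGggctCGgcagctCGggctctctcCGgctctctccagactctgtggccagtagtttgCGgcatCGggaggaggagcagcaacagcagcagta
Pcdh18: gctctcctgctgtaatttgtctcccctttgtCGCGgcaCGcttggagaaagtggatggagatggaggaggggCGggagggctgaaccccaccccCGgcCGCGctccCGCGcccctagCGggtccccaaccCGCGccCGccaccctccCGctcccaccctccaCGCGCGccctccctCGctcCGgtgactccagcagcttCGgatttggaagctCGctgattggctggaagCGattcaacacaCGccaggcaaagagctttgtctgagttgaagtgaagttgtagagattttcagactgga

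The window of Pcdh17 held 26 CG dinucleotides at 65% GC, that of Pcdh10 24 at 62.3%, and that of Pcdh19 18 at 67.7%. Pcdh7 stood apart with 11 CG dinucleotides at 59.3% GC, in a window with long runs of a and g. Windows of all protein-coding genes that met a shared region had medians of 23 CG dinucleotides and 62.3% GC, against 4 and 49.7% for windows that met no region. The 5 genes without a region at their window spanned this range. Pcdh18 had 23 CG dinucleotides, Pcdh9 had 18 and 19 in its 2 overlapping windows, Pcdh8 had 14, Pcdh15 had 8 and Pcdh20 had 4. A CG-rich window was thus found both with and without an accessible region.

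Short motifs were searched on both strands. None of the 5 printed windows held the searched motif of GATA factors, which is AGATAA and is found in 9.65% of 21263 windows of protein-coding genes. None held that of ETS factors, written CCGGAA and found in 18.7%, or that of RUNX factors, written TGTGGT and found in 15% of windows. The letters TATAAA, of the promoter box named for them, were in 12.6% of windows and AGGGGGC, part of the CTCF motif, in 12.9%, and neither was in any of the 5. The letters CGCT, the core of the element shared by most clustered protocadherin promoters, were found 8 times in the Pcdh10 window, 7 times in that of Pcdh18 and 3 times each in those of Pcdh7, Pcdh17 and Pcdh19, and 69.5% of all windows held them. CCAAT, a motif added after the sequences had been read, was found 2 times each at Pcdh10 and Pcdh17, 1 time each at Pcdh19 and Pcdh18 and not at Pcdh7, and 38.2% of all windows held it. Missing letters say nothing of whether a factor binds there.

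Values are summit reads, the number of extended reads that cover the highest point of a peak. The background of the knockout library was 0.640 times that of the control, and each ratio of knockout to control reads was divided by this factor to give a scaled ratio. Intervals are 95% intervals and cover counting error only. In such bulk libraries, fewer cells with an open site and less opening in each cell cannot be told apart.

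Pcdh7 encodes a delta-protocadherin of the non-clustered group, whose tail can bind the phosphatase PP1-alpha. It had the highest summit reads of the family, in 4 regions. The region over its RefSeq start (chr5:57717304-57718330) had 48 summit reads in the knockout library (35.4 to 63.6) and 44 in the control library (31.97 to 59.1). Here the shallower library had the larger number, a scaled ratio of 1.70 (1.11 to 2.63). This was the 1 of 9 shared protocadherin regions with a ratio of at least 1.5, which 9.09% of all shared regions reached, and the 1 with an interval above 1, which 7.41% of all had. No protocadherin region had an interval below 1, as 8.47% of all had. The summits lay 539 bp (knockout) and 622 bp (control) before the RefSeq start, outside the printed window, inside the long noncoding RNA gene 4932441J04Rik.

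A second shared Pcdh7 region, wider at 1831 bp, spanned the low end of the gene as the table draws it (chr5:57714366-57716196). It had 68 summit reads in the knockout (52.8 to 86.2) and 113 in the control (93.1 to 135.9), a scaled ratio of 0.940 (0.685 to 1.28). The neighbouring regions therefore had ratios on different sides of 1. The deposited fold over the local background was 3.25 in the knockout and 1.98 in the control at the RefSeq start, and 4.66 in the knockout and 5.12 in the control at the wider region. The local background was high at both, 13.8 and 14.1 reads in the knockout and 21.3 and 21.7 in the control. At least 92.5% of knockout peaks and 92.2% of control peaks had a lower one. The control peak at the RefSeq start was weak within its list, with a −log10 q above that of 3.49% of control peaks only.

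Inside the gene, 64056 bp after the start, another shared region (chr5:57781800-57782738) had 64 summit reads in the knockout (49.3 to 81.7) and 79 in the control (62.5 to 98.5). Its scaled ratio was 1.27 (0.895 to 1.78), with an interval that included 1. It was the strongest protocadherin peak by fold, with 14.8 in the knockout and 15.1 in the control, and its summits stood 2 bp apart, where the median over all shared regions was 51 bp. A further region, 42458 bp after the start, was control-only, at 9 reads (4.12 to 17.1).

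**Figure D1:**
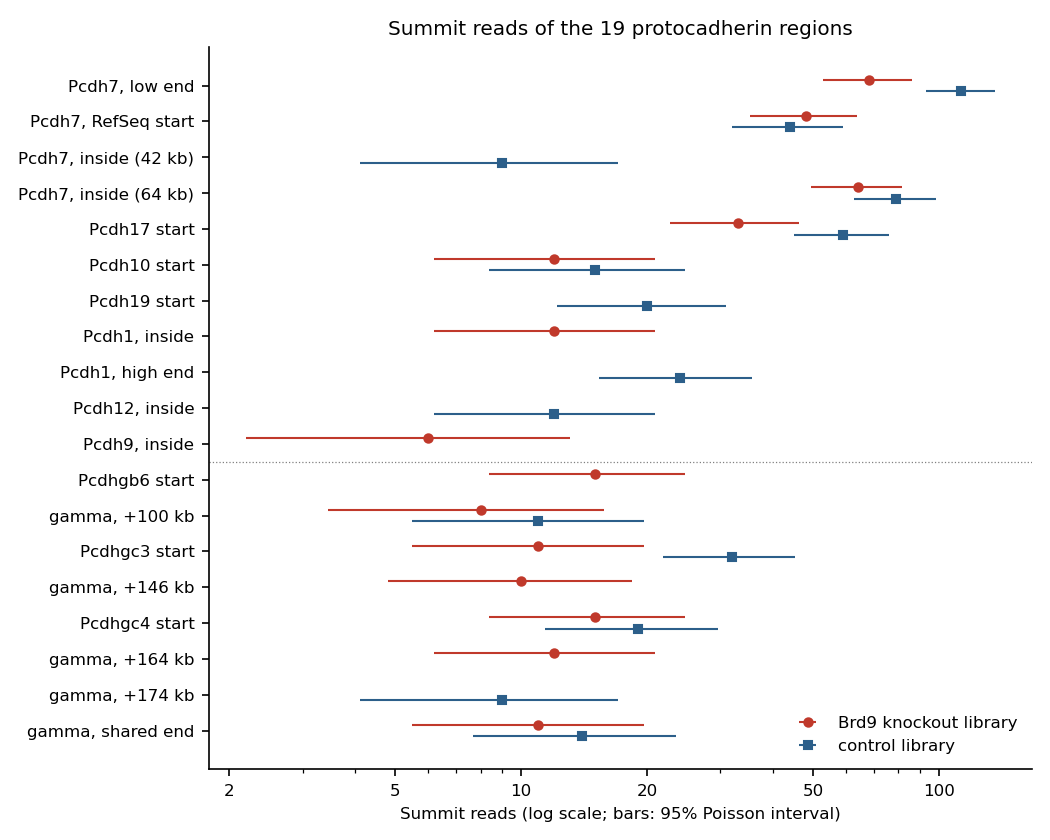
Summit reads (log scale) of the 19 protocadherin regions, with the knockout library as red circles above the control library as blue squares; bars are 95% Poisson intervals, and a missing symbol means no listed peak. Only the Pcdh7 and Pcdh17 regions in both lists exceed 32 reads in either library, and all 8 gamma cluster regions, under the dotted line, have 8 to 32 reads.

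Pcdh17, a delta-protocadherin of axon bundles and synapses, had its 1 region across the gene start (chr14:84443000-84443752). It had 33 summit reads in the knockout (22.7 to 46.3) and 59 in the control (44.9 to 76.1). The scaled ratio was 0.873 (0.552 to 1.36), with an interval on both sides of 1. The summits lay 102 bp (knockout) and 126 bp (control) before the Pcdh17 start, between it and the start of the long noncoding RNA gene Gm32498, which runs on the opposite strand from a point 159 bp away.

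Pcdh10, which promotes axon growth and recruits the WAVE actin complex, also had 1 region, across its start (chr3:45377836-45378612). It held 12 summit reads in the knockout (6.20 to 20.96) and 15 in the control (8.40 to 24.7), a scaled ratio of 1.25 (0.534 to 2.86). At this depth no difference was detectable. The region also covers the start of 2610316D01Rik, a long noncoding RNA gene on the opposite strand, 138 bp from the Pcdh10 start. The summits were 370 bp (knockout) and 155 bp (control) before the start, 215 bp apart.

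Pcdh19, an X-linked delta-protocadherin gene whose human form is mutated in an epilepsy of females, had a start region in the control list alone (chrX:133688605-133689055). It had 20 summit reads (12.2 to 30.9), with its summit 65 bp after the start. At equal accessibility the knockout library would have had 12.8 reads, and the lowest number of any knockout peak at a like background was 7. Such expected numbers, here and below, start from a peak picked in 1 list and leave out its counting error. They do not show that accessibility differed. A knockout-only region of 9 reads lay 2878 bp from the gene, past the 1 kb limit, inside the long noncoding RNA gene Gm26851, which also overlaps the start region. Among all chromosome X regions, 9.17% were knockout-only and 22.1% control-only. Sex-linked genes differed between the libraries as well. Ddx3y and Uty, both Y-linked, had regions of 33 and 18 reads in the knockout list alone, and the Y-linked Kdm5d and Eif2s3y had none in either. At Xist, a control-only region had 43 reads, and the region in both lists had 33 reads in the knockout and 86 in the control (scaled ratio 0.599, 0.388 to 0.905). The part of sex in the Pcdh19 difference was not tested.

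Pcdh1, a protocadherin of the human airway epithelium, had 2 regions, and the lists did not share them. The knockout list held a region inside the gene (chr18:38203524-38203953) with 12 summit reads (6.20 to 20.96), and the control list held one 304 bp beyond the high end (chr18:38212352-38212912) with 24 reads (15.4 to 35.7), inside the long noncoding RNA gene 2010320O07Rik. Equal accessibility would have given 18.7 reads in the control for the first and 15.4 in the knockout for the second, and the lowest listed number at a like background was 8 in both lists.

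Pcdh12, also named VE-cadherin-2 for its place in endothelial cells, had a control-only region inside the gene (chr18:38270287-38270712) with 12 summit reads (6.20 to 20.96). At equal accessibility 7.68 reads would have been present in the knockout, where peaks of a like background began at 6. Of 6 endothelial markers, 2 had a region in the knockout list and 3 in the control list, against 58.2% and 59.7% of all protein-coding genes. The summed summit reads were 58 in the knockout and 109 in the control, a scaled ratio of 0.831. An unlisted peak counts as 0 in these sums, so Tek adds 25 reads to the control alone. Kdr had 33 reads in the knockout and 33 in the control, and Flt4 had 25 in the knockout and 51 in the control. Tek, with 25 reads, was control-only like Pcdh12, and Cdh5, Pecam1 and Tie1 had no region in either list. The part of endothelial cells in the Pcdh12 difference was not tested. Pcdh9, a long gene of the delta group, had 1 knockout-only region deep inside it (chr14:93818745-93819280), with 6 reads (2.202 to 13.1), the lowest number that any knockout peak had at the lowest background.

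For the 5 genes without a region, the distance to the nearest region was large. It was 178799 bp for Pcdh8, which encodes the paraxial protocadherin, and 316679 bp for Pcdh15, whose protein forms the tip links of hair cells in the inner ear. For Pcdh18 it was 648683 bp, for the X-linked Pcdh11x 743890 bp and for Pcdh20 1037074 bp. Of the 3 genes of 500 kb and over, Pcdh15, Pcdh9 and Pcdh11x, 1 had a region, against 67.4% of 227 protein-coding genes of that length, while all 3 genes of 50 to 200 kb had one, against 80.1% of 3955. Both genes under 10 kb, Pcdh8 and Pcdh20, had none, where 41.1% of 7938 genes had one.

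A long noncoding RNA gene lay within 1 kb of an end of 7 of the 12 genes, or 58.3%, against 15% of all protein-coding genes. They included every gene with a region at one of its ends, Pcdh7, Pcdh10, Pcdh17, Pcdh19 and Pcdh1, and also Pcdh8 and Pcdh11x, which had none. Reads over such shared ends cannot be assigned to either gene of the pair.

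Of the chromosome 18 clusters, the gamma cluster held regions and the alpha and beta clusters held none. No region lay within 1 kb of any of the 36 alpha and beta genes, over spans of 258.6 kb and 256.4 kb, nor in the 76.1 kb between these clusters. The gamma cluster, with 180.1 kb the shortest, held 8 regions, or 44.4 per Mb, against 20.4 per Mb over the spans of all protein-coding genes. This density rests on 8 regions and has no interval. The cluster had 5 regions where peaks needed a −log10 q of 5 or more, and 0 with the 11174 strongest peaks of each list. The density over all protein-coding genes was not computed for these stricter settings. The 140.4 kb between the beta and gamma clusters held 1 region, shared, at an end of Taf7, a gene for a subunit of the general transcription factor TFIID, with 42 summit reads in the knockout and 77 in the control. Since all 21 gamma genes run to the same last exons, with ends within 11 bp of each other, most gamma regions count for many genes, and the 28 members with a region by the rule include all 21 gamma genes. The other 41 members had none. By the same rule 62.0% of all protein-coding genes had a region. Among genes under 10 kb, a length that every beta gene has, the share was 41.1%. Start sites tell the gamma genes apart, and regions covered the starts of 3 of the 21. Over all protein-coding genes, 46.6% of 21263 RefSeq starts were covered by a region. The gamma starts are low ends of the annotated genes, for which no RefSeq start was found, so these measures are unlike.

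Of these, Pcdhgc3 and Pcdhgc4 belong to the C-type genes at the downstream side of the cluster, which neurons use more constantly than the others. The region over the Pcdhgc3 start (chr18:37806063-37807018) had 11 summit reads in the knockout (5.49 to 19.7) and 32 in the control (21.9 to 45.2). Its scaled ratio of 0.537 (0.244 to 1.09) was the lowest of the family and the 1 of 9 at or below 1/1.5, which 9.51% of all shared regions were, but its interval included 1. The summits stood 6 bp apart. At the Pcdhgc4 start (chr18:37814972-37816131) there were 15 reads in the knockout (8.40 to 24.7) and 19 in the control (11.4 to 29.7), a scaled ratio of 1.23 (0.583 to 2.56). The starts of Pcdhgc5, the remaining C-type gene of the cluster, and of Pcdhac1 and Pcdhac2 in the alpha cluster had no region.

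Pcdhgb6, 1 of the variable gamma genes, had a region over its start in the knockout list alone (chr18:37741982-37742528), with 15 summit reads (8.40 to 24.7). Equal accessibility would have given 23.4 reads in the control, where peaks of a like background began at 7. This expected number rests on the knockout peak by which the region was picked, and does not show a gain in the knockout. With its −log10 q of 10.8, the Pcdhgb6 region was the strongest protocadherin region of the knockout list that the control list lacked. The next region (chr18:37761365-37761899), which was shared, had 8 reads in the knockout and 11 in the control, a scaled ratio of 1.14 (0.397 to 3.10). It overlaps the pseudogene Pcdhgb8, as most gamma regions do, among them those at the Pcdhgc3 and Pcdhgc4 starts. All gamma regions also overlap the protein-coding genes Gm37013, Gm38666 and Gm38667.

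The other 4 gamma regions covered no start. A knockout-only region inside Pcdhgc3 (chr18:37807796-37808259) had 10 summit reads and another, downstream of all gamma starts (chr18:37825099-37825690), had 12. A control-only region (chr18:37835725-37836212) had 9 reads, and the knockout would have had 5.76 at equal accessibility, below the lowest listed number of 6. At the common end of the gamma genes (chr18:37841094-37842640), the widest gamma region, of 1547 bp, had 11 reads in the knockout and 14 in the control, a scaled ratio of 1.23 (0.504 to 2.91). The cluster thus held 3 knockout-only regions and 1 control-only region beside 4 shared regions, all of low reads.

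**Figure D2:**
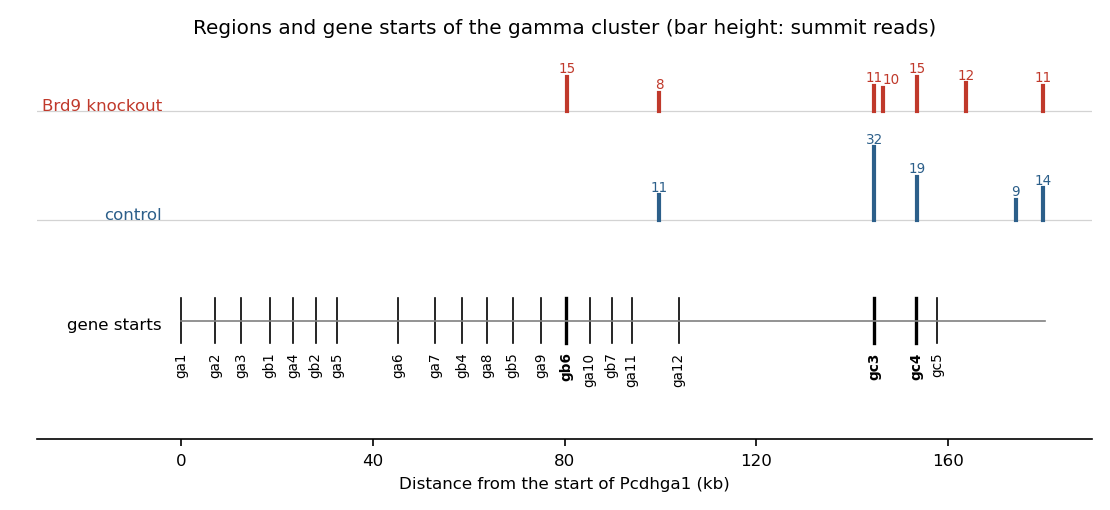
Summits in the gamma cluster by distance from the start of Pcdhga1 in kb, with the knockout library in the upper row, the control library in the middle row and the starts of the 21 protein-coding gamma genes at the bottom; bar height and the number above it give summit reads. Starts covered by a region are bold (Pcdhgb6, Pcdhgc3 and Pcdhgc4), and no peak lies in the first 80 kb.

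Taken by class, 9 of the 19 protocadherin regions were shared, 5 knockout-only and 5 control-only. Over all regions 63.6% were shared, 13.0% knockout-only and 23.4% control-only. The protocadherin share in both lists was 47.4% (24.4 to 71.1) and that of knockout-only regions 26.3% (9.15 to 51.2), and both intervals include the values over all regions. At equal accessibility all 5 knockout-only protocadherin regions would have reached the lowest listed number of the control library, as 99.9% of all 3776 knockout-only regions would. Of the 5 control-only ones 3 would have reached that of the knockout, and of all 6814 control-only regions 83.0%. The 2 that would not were the regions of 9 reads in Pcdh7 and in the gamma cluster. For knockout-only regions the outcome was nearly fixed in advance by the depths. Even 6 reads, the lowest knockout number at the lowest background, scale to 9.37 in the control, where such peaks began at 7. Neither count measures a difference between the libraries. Regions in 1 list were narrow, 512 bp wide in the median, and the shared ones 956 bp; over all regions these medians were 536 and 962 bp.

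Among the 9 shared regions, 6 had a scaled ratio above 1 and 3 below, where 49.5% of all 18481 shared regions with a ratio were above 1. The median log2 scaled ratio was 0.30 (lowest −0.90, highest 0.77), and it was −0.01 over 14851 shared regions near protein-coding genes. The split rested on the measure. By the ratio of the deposited folds, 3 of the 9 regions were above 1 and 6 below, with a median log2 ratio of −0.06, where 47.4% of all shared regions were above 1. Without depth scaling every log2 ratio is lower by 0.64, which puts the median at −0.35 for the protocadherin regions and at −0.65 for all shared regions. The 4 gamma regions had a median of 0.24 and the 5 regions elsewhere one of 0.32.

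**Figure D3:**
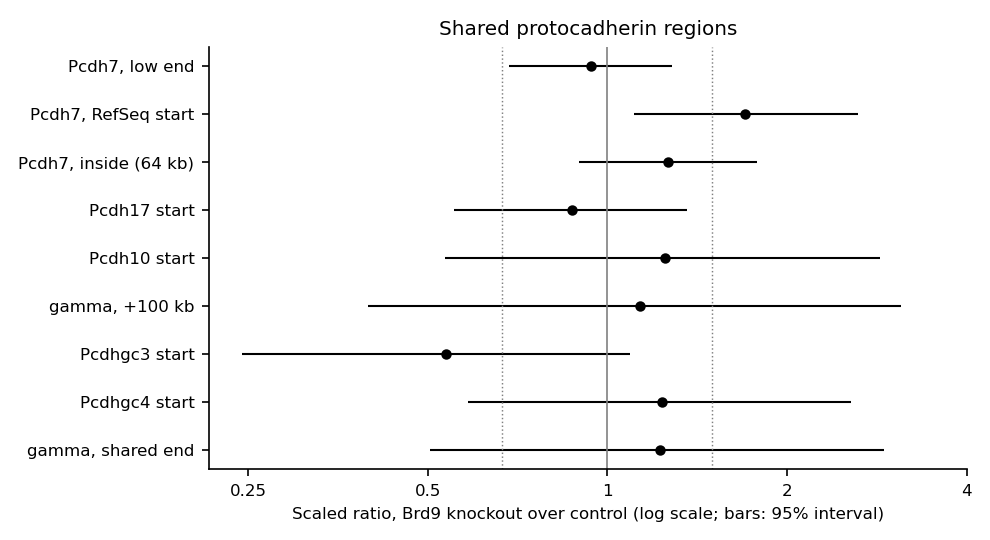
Scaled ratio of summit reads, knockout over control (log scale), for the 9 shared protocadherin regions, with 95% exact conditional binomial intervals; the solid line marks 1 and the dotted lines 1.5 and 1/1.5. The interval of the Pcdh7 start region, 1.11 to 2.63, leaves out 1, and the other 8 include it.

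The wider superfamily and the partners of protocadherins were read the same way. Of 23 classical and other cadherin genes, 12 had a region, and of 18 genes for Fat, Dachsous, Celsr and related proteins, 11 had one, beside 62.0% of all protein-coding genes. Among the cadherins 3 of the 23 genes were in the knockout list alone (Cdh3, Cdh10 and Cdh26), beside 2.32% of all protein-coding genes. Another 3 were in the control list alone (Cdh4, Cdh13 and Cdh15), beside 3.76% of all, and the regions of these genes had 6 to 22 summit reads. Of the related genes, Cdhr4 was in the knockout list alone and Fat1 in the control list alone. The 1 region of the cadherins past a ratio of 1.5 with an interval that left out 1, as 3.63% of all shared regions were above and 5.47% below, lay in Cdh23. It had 24 reads in the knockout and 8 in the control (scaled ratio 4.69, 2.04 to 12.1), and it also overlaps Vsir, an immune checkpoint gene. The other 3 shared regions of Cdh23 had scaled ratios of 0.885 to 1.06, and 2 regions were knockout-only and 2 control-only. Cdh23 binds Pcdh15 in the tip link, and Pcdh15 itself had no region.

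Catenins, which link classical cadherins to actin, had regions at 5 of 7 genes, all shared. Of all protein-coding genes, 62.0% had a region and 55.2% a shared one. Of all shared regions, 3.63% were past the limits above 1 and 5.47% below. At Ctnnd1, the gene of p120-catenin, a region had 12 reads in the knockout and 47 in the control (0.399, 0.193 to 0.763). Regulators of the clusters had a region at each of 16 genes. The regions of Ctcf (37 reads in the knockout and 58 in the control; scaled ratio 0.996, 0.641 to 1.53) and of the cohesin gene Rad21 (47 in the knockout and 90 in the control; 0.816, 0.561 to 1.17) had intervals that included 1. Wiz, a zinc-finger gene of a repressive histone methyltransferase complex, had a region with 69 reads in the knockout and 39 in the control (2.76, 1.84 to 4.20), and its other 3 shared regions had ratios of 0.751 to 0.816, with intervals that included 1. Dnmt3a, a DNA methyltransferase gene, had 1 region higher in the knockout (29 reads in the knockout and 22 in the control; 2.06, 1.14 to 3.76) and another lower (69 in the knockout and 174 in the control; 0.619, 0.462 to 0.823). Its other 4 shared regions had ratios of 0.883 to 1.45, with intervals that included 1, and 1 region of 7 reads was knockout-only. Dnmt3b, whose enzyme methylates clustered promoters, had its region in the control list alone, with 30 reads. Of all protein-coding genes, 3.76% had a region in the control list alone. Effectors of the protocadherin tails had a region at 20 of 21 genes, and of these Cyfip2, a WAVE complex gene, was past the limits (10 reads in the knockout and 41 in the control; 0.381, 0.170 to 0.773). A second shared region of Cyfip2 had a ratio of 0.838 (0.475 to 1.44), and 3 more regions, of 6 to 9 reads, were knockout-only. Median log2 ratios were 0.07 for cadherins, 0.05 for the related genes, 0.00 for catenins, 0.10 for regulators and −0.08 for effectors.

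Other tandem families gave a setting for the clusters. Of 1110 Olfr olfactory receptor genes 7 had a region (0.631%), of 231 Vmn1r and 124 Vmn2r pheromone receptor genes 1 and 2 had one, and of 35 Tas2r taste receptor genes none. Of 56 Krt keratin genes 6 had one. Of 9 Ugt1a genes 8 had one, from 2 regions in all, since these genes too share their last exons. Of the 36 alpha and beta protocadherins 0 had one, beside 62.0% of all protein-coding genes.

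**Figure D4:**
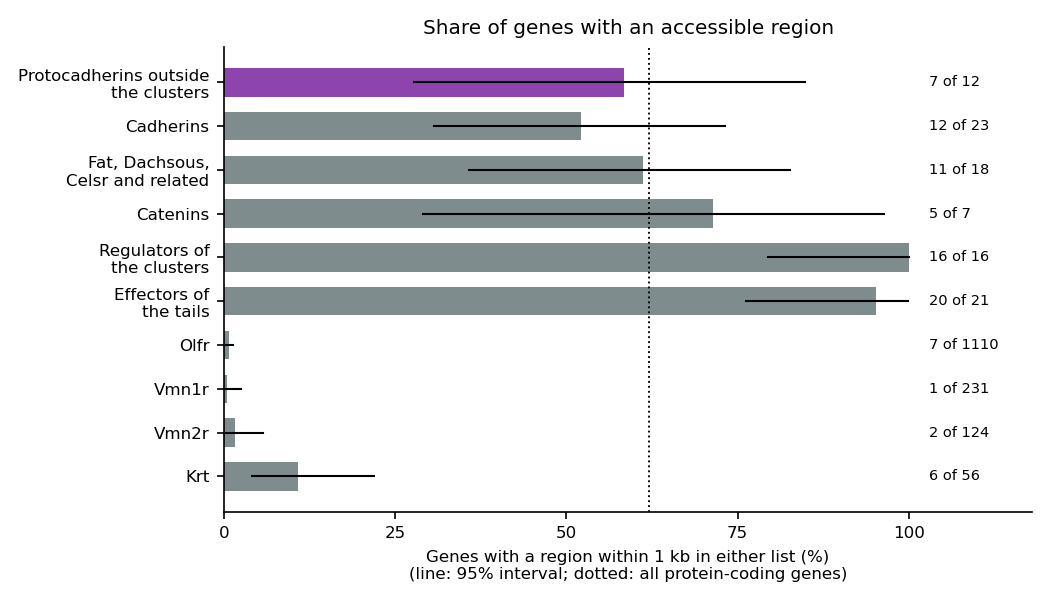
Percent of genes with a region within 1 kb in either list, for protocadherins outside the clusters (purple), other gene lists and tandem families; lines are 95% exact Clopper-Pearson intervals, the dotted line marks the 62.0% of all protein-coding genes, and counts stand at the right. Protocadherins outside the clusters, at 7 of 12, are close to that line, and the Olfr, Vmn1r and Vmn2r receptor families are near 0.

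The knockout list held 22348 peaks with a median of 28 summit reads, and the control list 25330 peaks with a median of 37. Markers of the sorted cell type and of other cells were counted. For comparison, 58.2% of all protein-coding genes had a region in the knockout list and 59.7% in the control list. A region at a marker gene is therefore not by itself a sign of that cell type. Whether these short lists differ from the shares over all genes was not tested. Of 10 blood stem and progenitor genes, 10 had a region in the knockout list and 9 in the control list, and the summed summit reads were 1339 in the knockout and 2176 in the control (scaled ratio 0.961). Cd34, with 18 reads, had its region in the knockout list alone. Of 7 erythroid genes 6 had one in the knockout list and 7 in the control list, with 738 reads in the knockout and 1446 in the control (0.797), and Hbb-bs was control-only. Of 7 hepatocyte genes 3 had one in each list, with 176 reads in the knockout and 229 in the control (1.2), and Alb, Afp, Ttr and Serpina1a had none. The stromal list, with 3 of 5 genes in the knockout and 4 of 5 in the control, had 69 reads in the knockout and 132 in the control (0.816), and Dcn had no region. Col1a2, with 12 reads, was control-only. The macrophage list, with 3 of 5 genes in each, had 387 reads in the knockout and 539 in the control (1.12), and Adgre1 and Cd68 had none. Most of these reads were at Axl, with 332 in the knockout and 509 in the control. Csf1r had 34 reads in the knockout and 18 in the control, and Mertk had 21 in the knockout and 12 in the control. Of 9 neural markers 6 had a region in the knockout list and 5 in the control list, with 164 reads in the knockout and 287 in the control (0.892), and Snap25 and Sox10 had none. Nefl, with 8 reads, and Olig2, with 9, were knockout-only, and Syt1, with 55, was control-only. The part of such cells in the protocadherin regions was not tested.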

How the data were processed

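Peak lists of ATAC-seq were deposited for each library. Trimmomatic 0.39, Bowtie2 2.4.4, Picard 2.26.2, deepTools 3.5.1, MACS2 2.2.7.1 and the build mm10 are named, per the submitters' processing notes, with neither roles nor settings. In the deposited lists, fold is a ratio (summit pileup over local background), and the deposited −log10 p and −log10 q are the authors' own values per peak. The deposited score was not used. Whole-number summit reads were recovered from fold and −log10 p (relative misfit under 1e-05 for 100.0% of peaks), a step also tested on simulated data. The relative depth is the ratio of the lowest backgrounds, 0.971 reads in the knockout and 1.52 in the control; total reads are unknown. Peaks over 3000 summit reads got no ratio. Regions and intervals were computed with Python 3.11.15, NumPy 2.4.6, SciPy 1.17.1 and pandas 2.3.3, and figures with matplotlib 3.10.9. A like background means within 10%. Read shifting, duplicates and blacklists are not given in the sources used here. Whether reads are independent molecules is unknown, so intervals cover counting error only. Genes came from RefSeq (GRCm38.p6), whose table gives outer ends only, so exons and introns were not told apart, and for the gamma cluster the low end was taken as the start. All protocadherin genes with a region are named. Of other lists, genes in 1 list alone and those past a ratio of 1.5 with an interval that leaves out 1 are named. Ctcf, Rad21, Smc3, Stag1 and Mau2 were named after their values were seen. The members and lists were chosen with earlier results of these data known.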

Additional observations from a re-analysis of the deposited data

How the results depend on the processing

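Of 71 values recomputed under the alternatives, 60 stayed within the limits set for them and 11 moved. Counts moved where they changed by over 1.5 times. Shares and single ratios moved where they left their 95% interval, which is narrow for the share over all protein-coding genes. The median moved where its sign changed or where it left the median limits of the intervals of the single regions. With peaks of a −log10 q of at least 5, 5 regions were shared instead of 9, and the gamma cluster held 5 regions instead of 8. With the 11174 top peaks of each list, no gamma region was left, 3 regions were shared, 0 were knockout-only and 0 control-only, and 2 genes outside the clusters had a region instead of 7; fewer peaks entered by construction. The share of all protein-coding genes with a region was 60.4% for regions that overlap the gene, 68.4% within 10 kb and 59.0% with a −log10 q of at least 5, against 62.0% within 1 kb. Without depth scaling every log2 ratio is lower by 0.64, so the median was −0.35 for the protocadherin regions and −0.65 for all shared regions. By the ratio of deposited folds the Pcdh7 start had 1.64, while Pcdh10 (0.718), the Pcdh7 region inside the gene (0.981) and the gamma region at chr18:37761365-37761899 (0.958) were below 1, each with a scaled ratio above 1 and an interval that included 1, so that 3 of the 9 were above 1 instead of 6. No paired analysis was possible with 1 library per genotype. The gamma regions had 8 to 32 reads each, which leaves wide intervals.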
